A study of Homo sapiens with 6 samples.

Results

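To examine how the routes of pyruvate and glutamine carbon into mitochondria were expressed across a breast tumor, 9 genes of these routes were followed among the 60671 annotated genes of the RNA-seq matrix. The genes were taken by name: PDHA1, PDHB, PDK1, PDK2, PDK3, PC, MPC1, MPC2 and GLUD1. All 9 were found and all 9 passed the filter on low values, which kept 13861 genes for testing.

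The RNA came from tumors grown in mice from MDA-MB-231, a triple-negative breast cancer line of human origin, and the labels give 3 core (TC) and 3 margin (TM) samples. In both groups wild-type cells had been injected into the mammary fat pads of female NSG mice, 6 to 8 weeks old, a NOD/SCID strain without the IL-2 receptor gamma chain. TC and TM samples therefore differed by zone alone as far as the labels say, and no drug was given to either. By the study's text the samples of a group came from separate mice, and whether a core and a margin shared a tumor is not stated. A single cell line was used, and the hosts lacked lymphocytes but kept stroma, vessels, muscle and myeloid cells. No step that parts mouse from human reads was described.

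Pyruvate made by glycolysis enters mitochondria through the mitochondrial pyruvate carrier, a heterodimer of MPC1 and MPC2. Inside, the pyruvate dehydrogenase complex turns it into acetyl-CoA, while pyruvate carboxylase (PC) turns it into oxaloacetate. The pyruvate dehydrogenase kinases phosphorylate the complex and switch it off, and PDK1 is a known target of hypoxia-inducible factor (HIF), which binds short motifs with the core ACGTG or GCGTG. Glutamine carbon reaches the same cycle as 2-oxoglutarate, which glutamate dehydrogenase (GLUD1) and transaminases make from glutamate. Triple-negative breast cancer cells are known for high glycolysis and for avid use of glutamine.

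Since PDK1 is a textbook HIF target, the promoter windows of the 9 genes were searched for ACGTG on either strand. RefSeq windows on GRCh38.p14, which run from 250 bases before to 50 bases after an annotated start, were found for all 9 genes. The 30 bases around each match are printed below in the direction of the gene with the match in capitals, because they show which of the genes carry the motif and how it is placed. On the reverse strand ACGTG reads CACGT, so the palindrome CACGTG counts on both strands.

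PDK1, plus strand, chr2:172556065-172556094: ctgcccgcCACGTccctCACGTaccactcg
PDK2, plus strand, chr17:50095210-50095239: cccgggggaagcCACGTGccggggcggaag
PDK3, plus strand, chrX:24465212-24465241: tcgcgcgccgcgtACGTGcagcaaccgact
PDHB, minus strand, chr3:58434051-58434080: acaccgaccaggCACGTGtgcccagcgtgc
PDHB, minus strand, chr3:58433848-58433877: ggcggggcctgctCACGTctgccggcccct
PC, minus strand, chr11:66958540-66958569: tgACGTGgggcgccaaggcttaaACGTGac

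RefSeq gives PDK1, PDK2, PC and MPC2 more than 1 start, and so more than 1 window. In PDK2 and PC the matches to ACGTG fell in a single window, and their other windows held 0. The matches of PDK1 formed a close pair from 17 to 4 bases before the downstream start, inside an exon of a GENCODE v29 transcript, and the window at the upstream start held 0. PDK2 and PDHB held the palindrome CACGTG. The windows of PDHA1, MPC1, MPC2 and GLUD1 held no ACGTG. Each of these genes did hold the other core, GCGTG, on either strand in at least 1 window, as did PDHB, PDK2 and PDK3. MPC2 and PDK2 also had windows without it, and no window of PDK1 or PC held it. PDHA1 had 4 matches to GCGTG. Of all 35116 windows of the same length, 21.4% held ACGTG, 36.5% held GCGTG and 7.3% held CACGTG. These shares are per window and not per gene, and a gene with several windows can match in any of them. A match is thus common, and it describes the letters of the window and not a bound site.

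The deposited values were TPM, transcript abundance per length on a scale that adds up to 1000000 per sample. Such values carry no read counts, so sequencing depth is unknown and precision rests on the spread between the 3 samples of a group. TM replicate 3 added up to 994381 and the other 5 samples to 1000000. In that replicate 4 of the 259 loci assembled outside the annotation were above 0, against 203 to 214 in the others. The tumor line's keratins KRT8, KRT18 and KRT19 were above 200 TPM in every sample, and the hormone receptor genes ESR1 and PGR did not exceed 0.22 TPM. ERBB2, which encodes HER2, was at 22.3 to 24.1 TPM in TC and at 30.8 to 40.7 TPM in TM. The epithelial marker CDH1 did not exceed 0.36 TPM. TC was compared with TM by limma on log2(TPM + 1), and all differences are TC minus TM on that scale. Over all tested genes the median difference was -0.14 as deposited, 0.05 after rescaling by median-of-ratios factors and 0.01 after quantile normalization, so each difference below has to be read against that median.

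None of the 9 genes passed an adjusted p of 0.05 (limma, Benjamini-Hochberg over all tested genes), and 19 of the 13861 tested genes, 0.137%, did. At an unadjusted p under 0.05 the count was 1 of 9, PDK2, which was lower in TC. The same held for 16.2% of all tested genes, of which 14.2% were lower and 1.93% higher in TC. In 2 of the 9 the TC and TM samples did not overlap, PDK2 on the lower side and MPC2 on the higher, against 22.2% of all tested genes, with 18.9% lower and 3.28% higher. These shares for the 9 genes are near the background. In all, 5 of the 9 differences were below 0 and 4 above it, with a median of -0.05. After median-of-ratios rescaling 3 were below 0 and 6 above it.

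**Figure D1:**
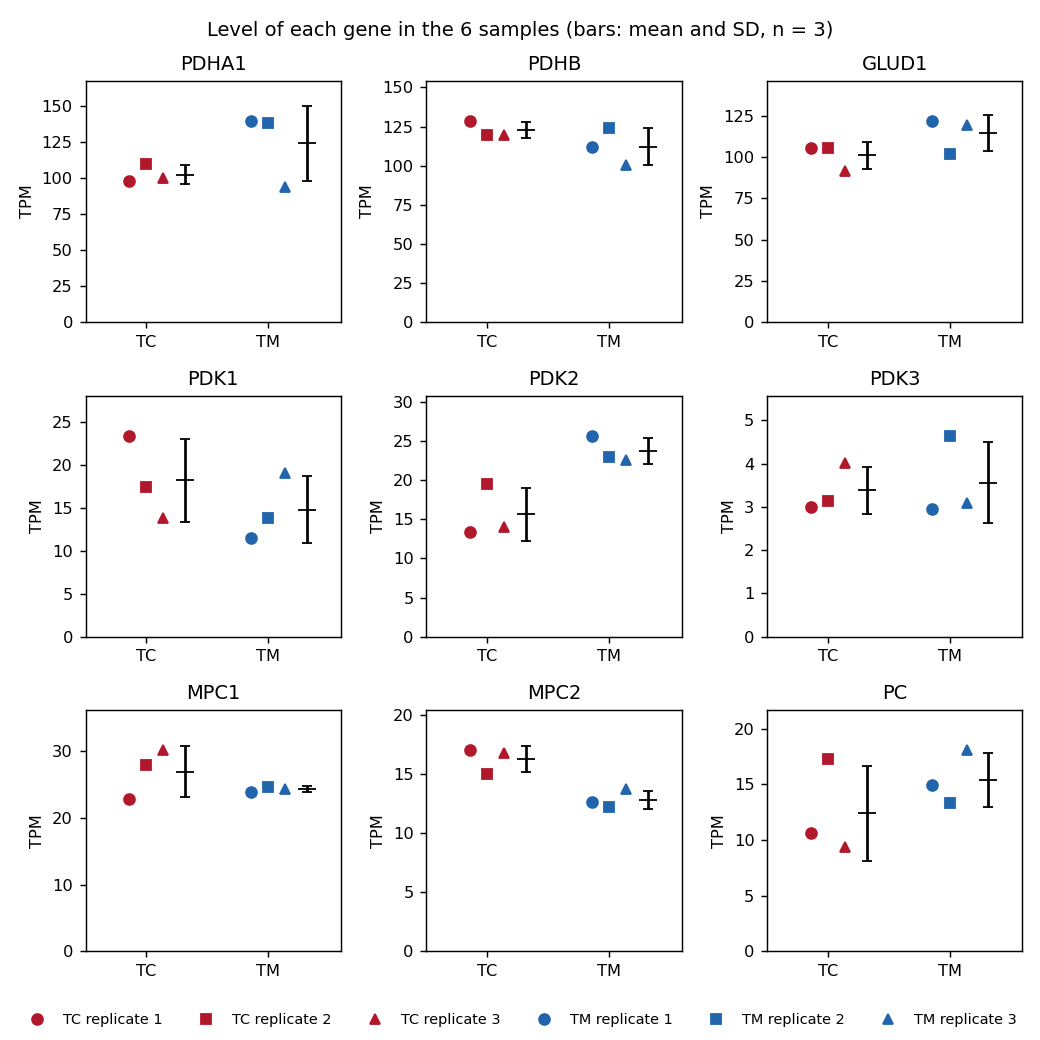
TPM of each gene (vertical axes, from 0, scaled per gene) in the 3 TC samples (red) and 3 TM samples (blue), with the marker shape giving the replicate number and black bars the mean and SD of each group (n = 3). The TC and TM points are apart for PDK2, with TM above, and for MPC2, with TC above, and they overlap for the other 7 genes.

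The genes of the pyruvate dehydrogenase complex were the most abundant of the 9 together with GLUD1. PDHA1 encodes the catalytic alpha subunit of the E1 component, the subunit that the kinases phosphorylate (ENSG00000131828, GENCODE v29 on GRCh38, chrX:19343893-19361705). Its level was 97.6, 110 and 99.8 TPM in the TC samples and 139, 138 and 94.0 TPM in the TM samples. TM replicates 1 and 2 were the highest of the 6 and TM replicate 3 was the lowest, so the groups overlapped. The means were 102 ± 6.41 TPM in TC and 124 ± 25.9 TPM in TM (SD, n = 3), a difference of -0.25 (SE 0.17, 95% confidence interval -0.65 to 0.14, limma adjusted p = 0.541). The value moved with the margin left out, to -0.16 without TM replicate 1 and to -0.16 without TM replicate 2. Without TM replicate 3 the difference was -0.44 with a limma adjusted p of 0.132, and after median-of-ratios rescaling of all 6 samples it was -0.04.

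PDHB encodes the beta subunit of the same E1 component (ENSG00000168291, chr3:58427630-58433857). It was at 128, 120 and 120 TPM in TC and at 112, 124 and 100 TPM in TM. The TM samples spread more widely and reached into the TC range. The means of 123 ± 5.09 and 112 ± 12.02 TPM (SD, n = 3) differed by 0.13 (SE 0.13, 95% confidence interval -0.16 to 0.42, limma adjusted p = 0.675). Once rescaled by median-of-ratios factors the groups no longer overlapped, and the difference was 0.34 (adjusted p = 0.337 in limma, with an unadjusted p under 0.05).

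The alpha and beta subunits are built into E1 in equal number. A ratio of 2 genes within a sample does not depend on how the sample was scaled. In the cores the PDHA1/PDHB ratio was 0.760, 0.917 and 0.834, and in the margins 1.25, 1.11 and 0.937. Each TM sample was above each TC sample, by little for TM replicate 3. The mean log2 ratio was lower in TC by 0.39 and was not tested, since the ratio was chosen with earlier results in view.

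The kinases were expressed at lower levels, with PDK1 and PDK2 well above PDK3. PDK1 (ENSG00000152256, chr2:172555373-172608669) was at 23.4, 17.5 and 13.8 TPM in the cores and at 11.5, 13.9 and 19.0 TPM in the margins. The highest value was in a core and the lowest in a margin, but TM replicate 3 exceeded TC replicates 2 and 3. The means were 18.2 ± 4.82 and 14.8 ± 3.86 TPM (SD, n = 3), and the interval of the difference of 0.28 included 0 (SE 0.25, 95% confidence interval -0.29 to 0.86, limma adjusted p = 0.647). Without TM replicate 3 it was 0.47, without TC replicate 3 it was 0.45, without TC replicate 1 it was 0.10 and without TM replicate 1 it was 0.13, with an unadjusted p above 0.05 in each case.

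PDK2, a broadly expressed kinase of the complex (ENSG00000005882, chr17:50094737-50112152), was the gene with the smallest p of the 9 on TPM as deposited, which after either rescaling was MPC2. It was at 13.4, 19.6 and 14.0 TPM in the cores and at 25.7, 22.9 and 22.6 TPM in the margins. All 3 margins lay above all 3 cores, and the nearest values were TC replicate 2 and TM replicate 3. The TM mean of 23.7 ± 1.69 TPM was 1.52-fold the TC mean of 15.6 ± 3.40 TPM (SD, n = 3). The difference was -0.59 (SE 0.19, 95% confidence interval -1.02 to -0.16), and it did not pass the adjustment over all genes (limma adjusted p = 0.181, with 0.121 to 0.429 over the alternatives). Relative to the median of all genes it was -0.45. After median-of-ratios rescaling the samples still did not overlap and the difference was -0.39, with an unadjusted p above 0.05.

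PDK3, the kinase with the lowest level of the 3 (ENSG00000067992, chrX:24465221-24541862), was at 3.0, 3.13 and 4.01 TPM in TC and at 2.96, 4.64 and 3.08 TPM in TM. The samples were mixed in order. The means were 3.38 ± 0.549 and 3.56 ± 0.937 TPM (SD, n = 3) with a difference of -0.05 (SE 0.25, limma adjusted p = 0.956). This sign turned after median-of-ratios rescaling, to 0.12, and after quantile normalization, to 0.14, so no direction is given.

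PDK4, a kinase outside the 9 genes that is known to rise in fasting, was at 1.21 to 3.75 TPM in TC and at 1.90 to 3.75 TPM in TM, with a difference of -0.03. Together PDK1 to PDK4 reached 40.0 ± 6.04 TPM in the cores and 44.8 ± 3.20 TPM in the margins (SD, n = 3). The sums overlapped between the zones. The shares of PDK1 and PDK2 in the sum did not, and they were not tested. PDK1 made up 54.3%, 39.8% and 41.8% of it in TC and 27.0%, 32.0% and 39.3% in TM. PDK2 made up 31.1%, 44.5% and 42.4% in TC and 60.3%, 52.9% and 46.6% in TM. Each core thus had a larger PDK1 share and a smaller PDK2 share than each margin, although TC replicate 2 and TM replicate 3 were less than 3 percentage points apart on both shares. PDK3 and PDK4 were a small part of the sum, so both shares and the PDK1/PDK2 ratio describe the same contrast. The level of PDK1 by itself overlapped between the zones, and that of PDK2 did not.

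In the cores the PDK1/PDK2 ratio was 1.75, 0.893 and 0.988, and in the margins 0.447, 0.604 and 0.842. PDK1 exceeded PDK2 in TC replicate 1, nearly equalled it in TC replicate 3 and was the lower of the pair in all margins. The mean log2 ratio was 0.21 in TC and -0.71 in TM, a difference of 0.92. It was not tested, since this ratio too was chosen with earlier results in view. How often ratios of other genes leave the zones apart was not counted. The ratios PDK1/PDK3, PDK2/PDK3 and PDK1/PDHA1 overlapped between the zones.

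**Figure D2:**
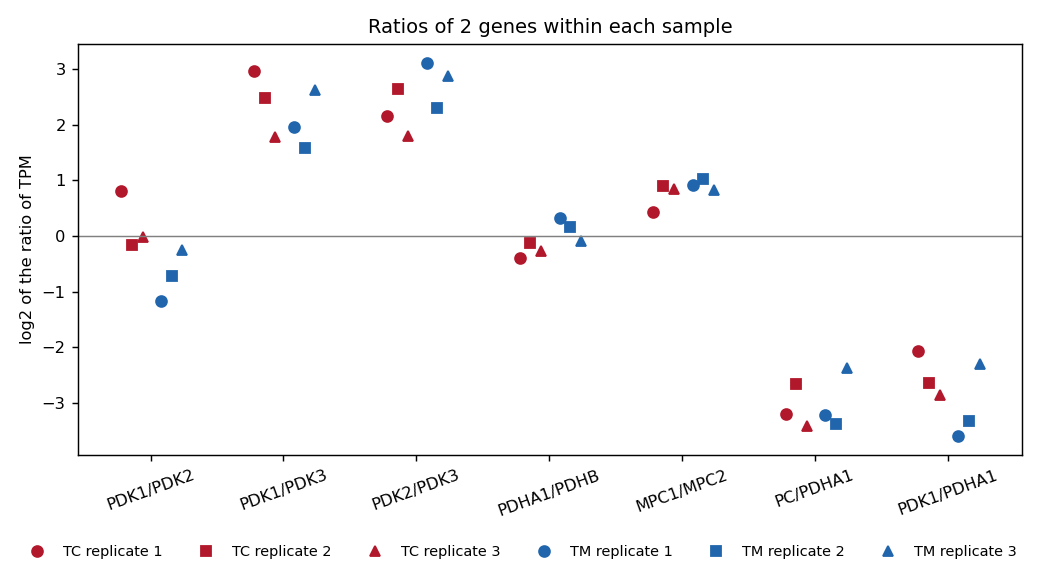
The log2 ratio of the TPM of 2 genes (vertical axis) in each TC sample (red) and TM sample (blue) for 7 ratios, with the marker shape giving the replicate number and no error bars, since each point is 1 sample. TC and TM points are apart for PDK1/PDK2, where the TC ratios run from 0.893 to 1.75 and the TM ratios from 0.447 to 0.842, and for PDHA1/PDHB, and overlap for the other 5. The ratios were chosen with earlier results known, and no share over ratios of other genes was counted.

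The carrier genes were both at moderate levels. MPC2 (ENSG00000143158, chr1:167916729-167937040), a subunit of the carrier, was at 17.0, 15.0 and 16.8 TPM in TC and at 12.6, 12.2 and 13.7 TPM in TM. Every core was above every margin. The TC mean of 16.2 ± 1.10 TPM was 1.27-fold the TM mean of 12.8 ± 0.766 TPM (SD, n = 3), and the difference was 0.32 (SE 0.16, 95% confidence interval -0.06 to 0.69, limma adjusted p = 0.402). Relative to the median of all genes it was 0.45. It was 0.51 after median-of-ratios rescaling (adjusted p = 0.268 in limma) and 0.51 after quantile normalization (adjusted p = 0.264), with an unadjusted p under 0.05 in both.

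MPC1, the partner subunit (ENSG00000060762, chr6:166364919-166383013), was at 22.8, 28.0 and 30.1 TPM in TC and at 23.9, 24.7 and 24.4 TPM in TM. The margins were nearly alike, and TC replicate 1 lay below all of them. The means of 27.0 ± 3.77 and 24.3 ± 0.389 TPM (SD, n = 3) differed by 0.13 (SE 0.16, 95% confidence interval -0.23 to 0.50, limma adjusted p = 0.746). The MPC1/MPC2 ratio was 1.34 to 1.87 in TC and 1.78 to 2.02 in TM and overlapped. MPC1L, a copy of MPC1 known from testis, was at 0 in all 6 samples.

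PC, which replenishes oxaloacetate (ENSG00000173599, chr11:66848233-66958376), was at 10.6, 17.3 and 9.34 TPM in TC and at 14.9, 13.3 and 18.1 TPM in TM. TC replicate 2 stood with the margins, and the other cores were the lowest of the 6. The means of 12.4 ± 4.26 and 15.4 ± 2.42 TPM (SD, n = 3) differed by -0.33 (SE 0.25, 95% confidence interval -0.90 to 0.25, limma adjusted p = 0.593). Without TC replicate 2 the difference was -0.57, with an unadjusted p under 0.05. The groups then did not overlap, as for 29.2% of all tested genes in that setting. Without TC replicate 3 the difference was -0.16 and without TM replicate 3 it was -0.22.

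GLUD1, which makes 2-oxoglutarate from glutamate (ENSG00000148672, chr10:87050486-87094866), was at 106, 106 and 91.7 TPM in TC and at 122, 102 and 120 TPM in TM. TM replicate 2 fell among the cores. The means were 101 ± 8.09 and 114 ± 10.9 TPM (SD, n = 3), a difference of -0.18 (SE 0.13, 95% confidence interval -0.48 to 0.12, limma adjusted p = 0.581), and after median-of-ratios rescaling its sign turned, to 0.03. GLUD1 shares sequence with its retrocopy GLUD2, with 7.82% of all 150-base stretches of its transcript identical to GLUD2, so part of its reads could be assigned to either. GLUD2 was at most 0.93 TPM in any sample. None of the other 8 genes shared such a stretch with another gene.

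Exons of other genes on the opposite strand overlap those of 7 of the 9, and the library kit as named does not state strand. The overlap was widest for PDK2, with 38.6% of its exon bases shared with SAMD14, which was at 0.25 to 1.79 TPM. For MPC2 it was 22.5%, shared with DCAF6, which was itself at 13.4 to 21.9 TPM, a level like that of MPC2. PC shared 10.5% with LRFN4 at 14.4 to 23.7 TPM, and GLUD1 13.2% with SHLD2 at 12.5 to 21.9 TPM. Reads from such overlaps may not be told apart.

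**Figure D3:**
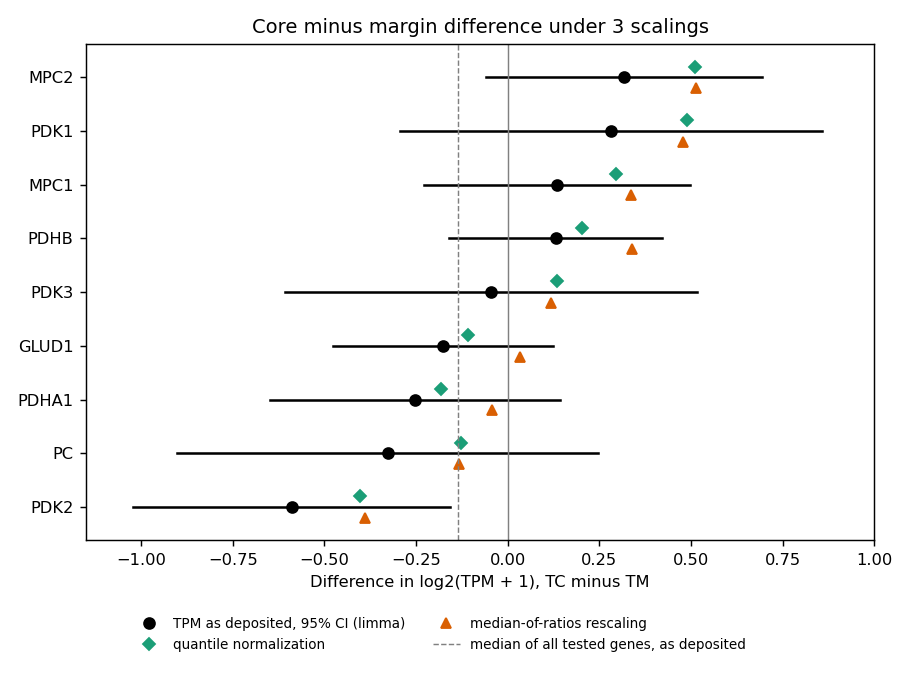
Difference in log2(TPM + 1), TC minus TM (horizontal axis), for each of the 9 genes, with black points and lines for the limma estimate and its 95% confidence interval on TPM as deposited, and colored points for the estimate after quantile normalization and after median-of-ratios rescaling. Only the interval of PDK2, from -1.02 to -0.16, leaves out 0, both rescalings move every gene to the right, and PDK3 and GLUD1 lie on both sides of 0.

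In order of level over the 6 samples the genes ran PDHB, PDHA1, GLUD1, MPC1, PDK2, PDK1, MPC2, PC and PDK3. PDHB, PDHA1 and GLUD1 were above 91% of all tested genes in mean TPM, and their ranges overlapped each other. MPC1 was above 68.8% of them, PDK2 above 62.2%, PDK1 above 57.9%, MPC2 above 54.9% and PC above 53.7%. The sample ranges of PDK2, PDK1, MPC2 and PC overlapped, so their order is within the spread. The range of MPC1 overlapped those of PDK2 and PDK1 as well, though not those of MPC2 and PC. PDK3, above 21.8%, was apart from all the others, with its highest sample below the lowest of PC.

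To place the 9 genes among the rest of the routes, 64 other genes of the pathway lists were read from the same fit, of which 54 passed the filter. None passed an adjusted p of 0.05 (limma). At an unadjusted p under 0.05 there were 10 of 54, with 7 lower and 3 higher in TC, against 16.2% of all tested genes, with 14.2% lower and 1.93% higher, and the median difference of the 54 was -0.14, the same as that of all tested genes. After median-of-ratios rescaling the count was 5, with 1 lower and 4 higher, and without TM replicate 3 it was 18, where 2560 of 13527 genes tested passed the same threshold. The most abundant of these genes was PKM, the pyruvate kinase gene, at 2100.5 TPM over the 6 samples, followed by LDHA at 1586 TPM, and they differed by -0.03 and 0.24.

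Among the other subunits of the pyruvate dehydrogenase complex, the acetyltransferase DLAT differed by -0.20, the dehydrogenase DLD by -0.14 and the binding protein PDHX by 0.05, and none reached an unadjusted p of 0.05. PDPR, the regulatory subunit of the phosphatase that switches the complex back on, was at 9.33, 7.73 and 6.87 TPM in TC and at 13.0, 12.7 and 15.5 TPM in TM. All margins were above all cores, as for the kinase PDK2. The difference of PDPR was -0.72 (SE 0.20, limma adjusted p = 0.136). PDPR was also the 1 gene of the wider set that was lower at an unadjusted p under 0.05 once the samples were rescaled by median-of-ratios factors.

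On the carboxylation side with PC, all 5 tested genes of the list had differences below 0, with a median of -0.21 as deposited and -0.01 after median-of-ratios rescaling, where ME1, a cytosolic malic enzyme, was above 0. ME3, a mitochondrial malic enzyme, was at 35.9 ± 4.21 TPM in TC and 48.8 ± 2.68 TPM in TM (SD, n = 3), a difference of -0.44 with a limma adjusted p of 0.191. On the glutamine side with GLUD1, 2 of 5 tested glutamine transporter genes had differences above 0, SLC38A1 and SLC38A2, both at 0.07. So had 1 of 6 genes between glutamate and 2-oxoglutarate, OAT at 0.11, and 1 of 5 mitochondrial glutamate and citrate carriers, SLC25A1 at 0.05. The medians of these lists, in that order, were -0.14, -0.29 and -0.27 as deposited. After median-of-ratios rescaling they were 0.07, -0.08 and -0.08. The glutamine synthetase gene GLUL differed by -0.39 and SLC3A2, a partner of amino acid transporters, by -0.14. GPT2, the mitochondrial alanine transaminase, was at 17.2 ± 2.16 TPM in TC and 23.4 ± 1.67 TPM in TM (SD, n = 3), a difference of -0.43 with a limma adjusted p of 0.255. SLC25A22, a mitochondrial glutamate carrier, differed by -0.52 and SLC25A13, an aspartate-glutamate carrier, by -0.43, with limma adjusted p-values of 0.168 and 0.293. GOT2, the mitochondrial aspartate transaminase, differed by -0.28, ACLY, which makes cytosolic acetyl-CoA from citrate, by -0.33 and SIRT3, a mitochondrial deacetylase, by -0.30. MYC, a regulator of glutamine use, differed by -0.56 with a limma adjusted p of 0.168.

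A match to ACGTG was held by PDK2, PDK3, PDHB and PC as well, so it does not set PDK1 apart. As a known target of HIF, PDK1 was read with 8 other HIF targets. As deposited, 8 of the 9 had differences above 0, with a median of 0.28 against -0.14 over all tested genes. BNIP3, PGK1 and ANKRD37, 3 of the 9, reached an unadjusted p under 0.05 in limma. Of all tested genes, 1.93% were higher in TC at that threshold. The list was chosen with earlier results of these data known, so these counts are no test of enrichment. The share of all tested genes above 0 was not counted. BNIP3, a mitophagy receptor, was at 195, 194 and 160 TPM in TC and at 111, 99.6 and 156 TPM in TM. The cores were above the margins, with TM replicate 3 close to TC replicate 3. BNIP3 differed by 0.60 and the glycolytic kinase PGK1 by 0.33, with limma adjusted p-values of 0.168 and 0.232. ANKRD37, of less known function, differed by 0.75 with a limma adjusted p of 0.283. Of the rest, CA9, a carbonic anhydrase, differed by 0.48, LDHA, lactate dehydrogenase, by 0.24, EGLN3, an oxygen sensor, by 0.17, NDRG1 by 0.17 and the growth factor VEGFA by -0.25.

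TM replicate 3 was above the other margins in several of these genes, though not clearly in PGK1, at 956 against 854 and 950 TPM. VEGFA was at 186 TPM there against 95.6 and 98.9 TPM in the other margins, NDRG1 at 925 against 330 and 397 TPM, and CA9 at 49.5 against 20.4 and 20.8 TPM. PDK1 was also highest in TM replicate 3 among the margins, at 19.0 against 11.5 and 13.9 TPM, with TM replicate 1 the lowest. In BNIP3, ANKRD37 and LDHA the lowest margin was TM replicate 2 instead, at 99.6, 20.7 and 1415 TPM. Over all 6 samples, the pathway gene whose log2(TPM + 1) was most like that of PDK1 was EGLN3. By the same measure, Pearson's r, GPT2 was most like PDK2, GOT2 most like PDHA1 and LDHA most like MPC2. For PDHB it was SLC25A1, for PDK3 LIPT2, for PC SIRT5, for MPC1 MCAT and for GLUD1 PDP2, and these r ran from 0.68 to 0.94 over the 9 genes. The 6 points share their scaling and zone, and the measure served only to rank 54 genes.

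**Figure D4:**
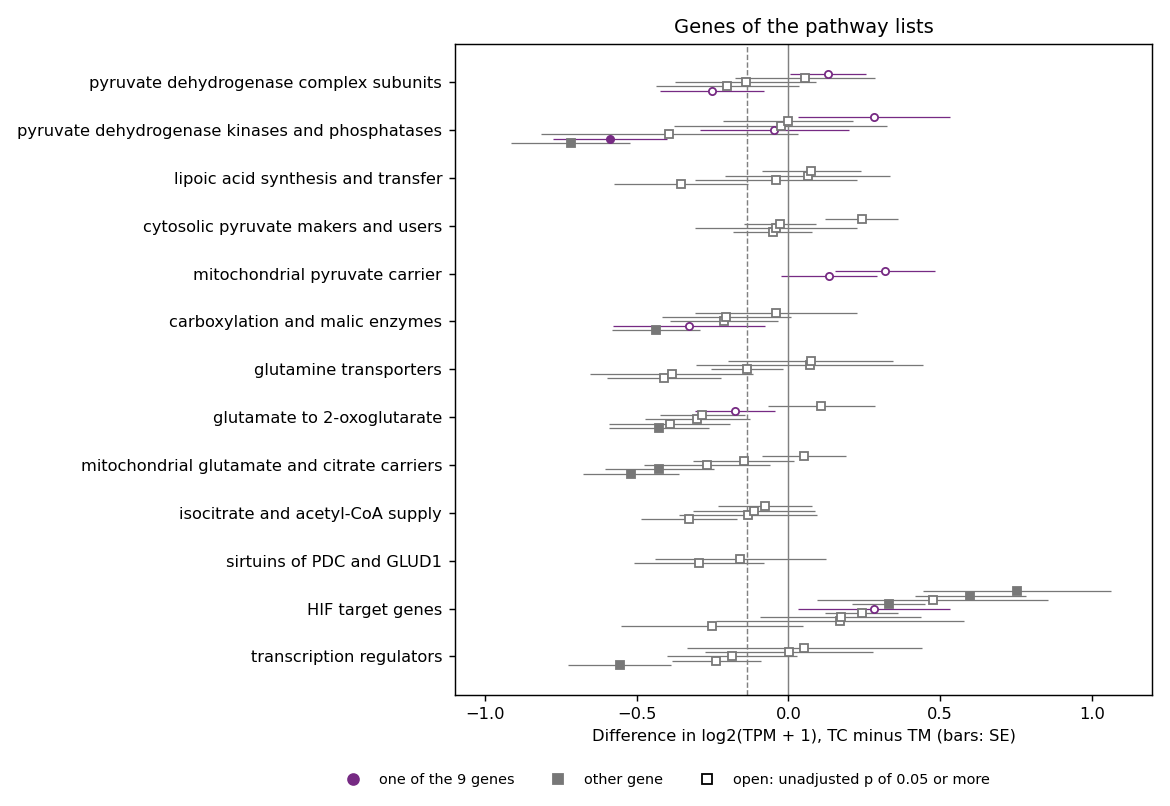
Difference in log2(TPM + 1), TC minus TM (horizontal axis, bars are the SE), for tested genes of 13 pathway lists, with circles for the 9 genes and squares for others, filled at an unadjusted limma p under 0.05; the dashed line is the median of all tested genes, -0.14. Most points of the HIF targets lie to the right of 0, the carboxylation list lies to the left, and PDK2 and PDPR are the filled points of the kinase and phosphatase list.

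Margin samples may hold host tissue, and in bulk RNA fewer cells of a type and less RNA per cell cannot be told apart. Skeletal muscle, a tissue rich in PDHA1 and PDK2, was read from 10 markers, of which 9 matched the matrix. Their summed level was 3.71 to 7.43 TPM in the cores, 165 and 436 TPM in TM replicates 1 and 2, and 1.70 TPM in TM replicate 3. The actin gene ACTA1 was at 53.7 and 165 TPM and the creatine kinase gene CKM at 26.7 and 60.0 TPM in those 2 margins, with at most 2.87 and 0.65 TPM in the other 4 samples, while MB was at 0 in all 3 margins. The 8 fibroblast markers summed to 65.8 to 225 TPM in the cores and to 477, 1005 and 91.0 TPM in TM replicates 1, 2 and 3. Most of this was COL1A1, at 335, 698 and 62.9 TPM in these margins. LUM was at 0 in TM replicates 1 and 2 and at most 0.38 TPM elsewhere, and PDGFRA did not exceed 0.30 TPM. PDGFRB and FAP, at most 4.95 TPM, were higher in every margin than in every core. The 6 adipocyte markers summed to at most 1.09 TPM in any sample, with ADIPOQ and LEP at 0 throughout. The 6 macrophage markers summed to 95.7 to 109 TPM in all samples, and most of each sum was CD68, at 84.8 to 94.2 TPM. CSF1R was higher in every margin than in every core. It was at 1.99 to 3 TPM in TC and at 3.1 to 9.12 TPM in TM. CD68, ADGRE1, MRC1 and AIF1 overlapped between the zones. CD163 was at 0.02 TPM in TC replicate 1 and at 0 in all other samples of both zones.

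PDHA1 was highest in the 2 margins with high muscle marker sums, and its level of 94.0 TPM in TM replicate 3, where the sum was below that of the cores, was the lowest of the 6. The part of muscle in the PDHA1 values was not tested. PDK2 was at 22.6 TPM in TM replicate 3, above all 3 cores, and MPC2 at 13.7 TPM, below all 3 cores, and the part of muscle in these values was not tested either.

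**Figure D5:**
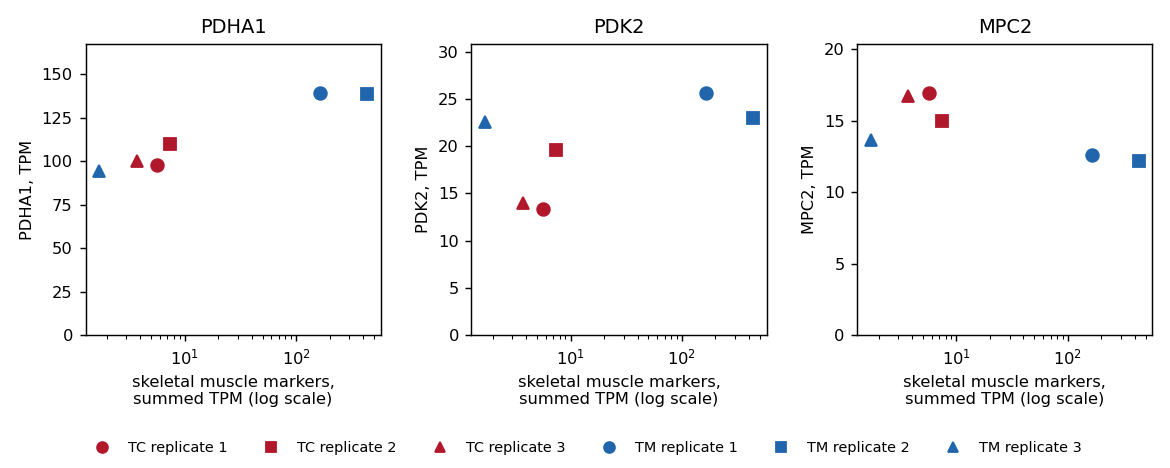
TPM of PDHA1, PDK2 and MPC2 (vertical axes, from 0) against the summed TPM of 9 skeletal muscle markers (horizontal axis, log scale) in the 3 TC samples (red) and 3 TM samples (blue), with the marker shape giving the replicate number. PDHA1 is at 139 and 138 TPM in the 2 margins with 165 and 436 TPM of muscle markers and at 94.0 TPM in the margin with 1.70 TPM, whereas PDK2 in that margin stays above the cores and MPC2 below them.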

How the data were processed

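Paired-end RNA-seq reads had been trimmed, aligned with HISAT2, assembled by StringTie and counted by RSEM, and the authors deposited TPM per gene. The labels name hg38, and the annotation release is not given in the sources used here. There were 0 other columns of values. The count model of the study (DESeq2) could not be run on TPM, so limma 3.58.1 in R 4.3.3 was used on log2(TPM + 1), with an empirical Bayes trend, two-sided, without a covariate, for annotated genes that reached 1 TPM in 3 or more samples. The fit was tested on simulated data. Genes with an adjusted p under 0.05 were called. Fold changes on this scale understate those of low genes.

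The 9 genes, the lists and the tests were chosen with earlier results of these data known. All 9 genes were named, and of the other lists those at an unadjusted p under 0.05, the HIF targets, PDK4, DLAT, DLD, PDHX, GLUD2, the gene of highest level in each list and the gene most like each of the 9. GLUD1P3, the highest of the near copies, had a mean of 1.06 TPM. Some genes of these lists are not reported here. MYLPF and GLUD1P8 were not matched. Endothelial markers summed to 3.44 to 7.53 TPM and erythroid markers to 0.29 to 6.93 TPM. The deviations of same-numbered TC and TM samples from their group means correlated at 0.21, -0.12 and -0.16 over genes. Those of samples with different numbers correlated at -0.23 to 0.32. Deviations from a group's own mean are tied to each other, so these values cannot decide whether same-numbered samples shared a tumor. The numbers were not taken as pairs because no pairing is stated for the RNA-seq samples. The study did use paired t-tests for core and margin in other assays. Whether samples of a group came from separate mice is known only from the study's text. P-values weigh the difference between the zones against the spread between samples of a zone, moderated over genes. Alternatives were another pseudocount, filters, scalings, moderation, the replicate block, assembled loci included and each sample left out. Positions are from GENCODE v29. Figures were drawn with matplotlib 3.10.9.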

Additional observations from a re-analysis of the deposited data

How the results depend on the processing

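None of the 9 genes was called in limma under any alternative run, and at an unadjusted p under 0.05 their number was 1 as reported, 2 without a filter on low values, 2 after median-of-ratios rescaling, and 1 to 2 when each sample was left out in turn. PDK2 was that gene as reported, but after quantile normalization it was MPC2, and after median-of-ratios rescaling MPC2 and PDHB. Leaving out TC replicate 2 added PC and leaving out TM replicate 3 added PDHA1. The number of the 9 genes whose zones did not overlap was 2 to 4 over the samples left out, with 4 without TM replicate 2. Over all tested genes the share was 28.5% to 36.9% in these settings and 31.7% without TM replicate 2, against 22.2% with all samples. The difference of PDK3 turned to 0.135 after quantile normalization, 0.118 after median-of-ratios rescaling and ran from -0.147 to 0.117 over the samples left out, and that of GLUD1 turned to 0.032 after median-of-ratios rescaling. PDK3 gave no value at a mean of at least 5 TPM. The calls over all genes, 19 as reported, were 7 with a pseudocount of 0.1, 1 without a filter, 4 after quantile normalization, 6 after median-of-ratios rescaling, 9 without mitochondrially encoded and ribosomal protein genes, 12 without a trend, 47 with robust moderation, and 0 to 17 over the samples left out, where the 0 of limma was without TC replicate 3, with 1632 genes at an unadjusted p under 0.05. Other pathway genes at an unadjusted p under 0.05, 10 as reported, were 5 after quantile normalization, 5 after median-of-ratios rescaling, 6 without a trend, and 5 to 18 over the samples left out. The causes were not tested. With the replicate block 1 gene was called over all genes and the unadjusted limma p of PDK2 stayed under 0.05. Of genes at an unadjusted p under 0.05, 88.0% were lower in TC as deposited, 60.4% after quantile normalization and 49.6% after median-of-ratios rescaling. Depth is unknown and limits of detection could not be set.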
